A study of Bos taurus with 9 samples.

Results

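The ISG15 conjugation system was followed in bovine blastocysts at day 8 through 6 genes: ISG15, UBA7, UBE2L6, HERC5, HERC6 and USP18. The genes were chosen by name as the parts of this pathway, with earlier results of these data known, and each was found by its symbol among the 22127 genes of the deposited table. Their Ensembl identifiers in the table are ENSBTAG00000014707 for ISG15, ENSBTAG00000012335 for UBA7, ENSBTAG00000012989 for UBE2L6, ENSBTAG00000020538 for HERC5, ENSBTAG00000020536 for HERC6 and ENSBTAG00000016661 for USP18. All 6 were among the 16469 genes with enough counts to be tested. The 9 RNA sequencing libraries came from embryos whose oocytes, still within their cumulus cells, had matured in 1 of 3 media, with 3 libraries for each medium. In the group called low glucose with BHB, the medium held 2.75 mM glucose and 1.8 mM BHB, an abbreviation that the labels do not spell out. In the low glucose group it held 2.75 mM glucose alone, and in the control group 5.5 mM glucose. All 3 media contained serum, FSH and estradiol, embryos of every group were fertilised and grown alike, and each library was made from poly(A) RNA of 9 to 11 pooled embryos. Whether the replicates of a medium were cultured separately is not stated in the labels. The p-values therefore cover the spread among these libraries alone, which may be technical.

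ISG15 is a small protein of the ubiquitin family that cells make when they sense type I interferon. It is attached to other proteins by a chain of 3 kinds of enzyme: the activating enzyme UBA7 takes up ISG15 first, the conjugating enzyme UBE2L6 carries it, and a ligase of the HERC family places it on the target. HERC5 is the main ligase in human cells, whereas HERC6 has that role in the mouse. The protease USP18 removes ISG15 from its targets and also binds the interferon receptor chain IFNAR2, where it dampens signalling. In cattle, interferon tau from the trophectoderm of the elongating embryo induces ISG15 in the uterus, and the gene is used there as a sign of early pregnancy.

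Library totals ran from 55611205 to 75178898 estimated counts. The blastocyst identity of the libraries was checked on defining markers of its lineages: the pluripotency factor POU5F1 averaged 1056 CPM, which gives counts relative to library size, with BHB, 1002 CPM in low glucose and 954 CPM in control. CDX2, a trophectoderm factor, averaged 154, 154 and 132 CPM in the same order, and GATA6, a hypoblast factor, 689, 633 and 565 CPM. These genes do not stand for their lists: GATA4, another of the 8 hypoblast markers, fell in each comparison with control. All levels are CPM scaled by TMM (trimmed mean of M values) factors. In whole embryos, fewer cells that express a gene and less RNA of it in each cell cannot be told apart.

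Several members of the system were lower after maturation in low glucose, with or without BHB. Against control, ISG15, UBA7, HERC6 and USP18 fell in low glucose (4 of 6 members), and ISG15, UBA7 and USP18 fell in low glucose with BHB (3 of 6). No member rose in either comparison. Over all tested genes, 2.02% were called lower in low glucose and 1.38% in low glucose with BHB, at a Benjamini-Hochberg adjusted p under 0.05 in edgeR's quasi-likelihood test. The median log2 fold change of the 6 members was -2.66 in low glucose and -2.05 with BHB, against 0.02 and 0.01 over all tested genes. Both comparisons use the same 3 control libraries, so they are not independent.

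**Figure D1:**
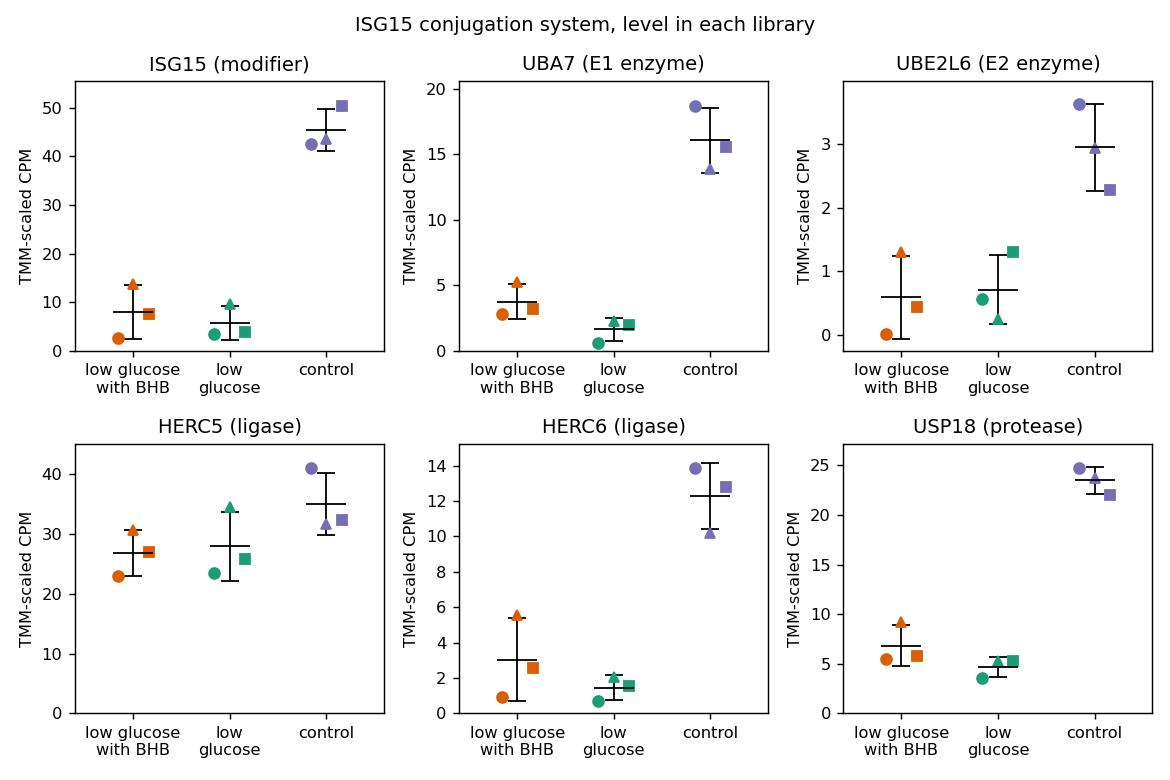
Level of each member in every library, in TMM-scaled CPM on linear axes, by maturation medium. Circles, triangles and squares are replicates 1, 2 and 3 of each medium, long bars are means and whiskers are 1 SD over 3 libraries; the UBE2L6 axis starts slightly below 0. Control libraries lie above all 6 low glucose libraries for every member but HERC5, whose low glucose replicate 2 (34.4 CPM) lies among them.

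ISG15, the modifier itself, stood at 2.62, 13.6 and 7.55 CPM in low glucose with BHB, at 3.48, 9.68 and 3.83 CPM in low glucose, and at 42.5, 43.5 and 50.5 CPM in control. No library of either low glucose medium came near the control range, and the spread among the low glucose libraries was wide for their level. The mean in low glucose was 5.67 ± 3.48 CPM, against 45.5 ± 4.35 CPM in control (SD, n = 3 each), a log2 fold change of -3.0 (SE 0.515, 95% interval -4.12 to -1.88, adjusted p = 0.00841), which is 8.01-fold lower. With BHB the mean was 7.94 ± 5.52 CPM and the log2 fold change -2.52 (SE 0.504, interval -3.61 to -1.42, adjusted p = 0.0293), 5.72-fold lower than control.

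UBA7, the activating enzyme, had 2.81, 5.26 and 3.20 CPM in low glucose with BHB, 0.626, 2.28 and 1.98 CPM in low glucose, and 18.7, 13.9 and 15.5 CPM in control. The 3 media formed 3 separate ranges, with the low glucose libraries lowest. Its log2 fold change of -3.30 in low glucose (SE 0.423, interval -4.22 to -2.38, adjusted p = 0.00178) made UBA7 9.83-fold lower than control. With BHB the log2 fold change was -2.09 (SE 0.40, interval -2.96 to -1.22, adjusted p = 0.0220).

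UBE2L6, the conjugating enzyme, was the member with the fewest counts and did not pass the test. It had 0.0164, 1.31 and 0.436 CPM in low glucose with BHB, 0.565, 0.253 and 1.31 CPM in low glucose, and 3.63, 2.94 and 2.27 CPM in control. The control libraries lay above all others, but the low glucose libraries were scattered. The lowest value is 1 count, for which the exact Poisson 95% interval runs from 0.0253 to 5.57 counts, while replicate 2 of the same medium had 97 counts. The interval covers counting error only. The log2 fold changes were -2.06 in low glucose (SE 0.907, interval -4.04 to -0.09, adjusted p = 0.618) and -2.31 with BHB (SE 0.916, interval -4.30 to -0.32, adjusted p = 0.528).

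The HERC ligases differed from each other. HERC6, the ligase of mouse cells, had 0.935, 5.57 and 2.58 CPM in low glucose with BHB, 0.702, 2.08 and 1.56 CPM in low glucose, and 13.8, 10.2 and 12.8 CPM in control. Control libraries were above all 6 others. HERC6 fell in low glucose, with a log2 fold change of -3.08 (SE 0.557, interval -4.29 to -1.87, adjusted p = 0.0111), or 8.46-fold lower. With BHB its log2 fold change of -2.01 (SE 0.530, interval -3.17 to -0.86, adjusted p = 0.120) missed the threshold.

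HERC5, the ligase of human cells, had 22.9, 30.6 and 26.9 CPM in low glucose with BHB, 23.4, 34.4 and 25.9 CPM in low glucose, and 40.9, 31.6 and 32.3 CPM in control. Low glucose overlapped with control, and the BHB libraries lay just under it. The log2 fold changes were -0.33 in low glucose (SE 0.178, interval -0.71 to 0.06, adjusted p = 0.866) and -0.38 with BHB (SE 0.179, interval -0.77 to 0.01, adjusted p = 0.702). The intervals of HERC6 and HERC5 did not overlap in either comparison.

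Because HERC5 in human and HERC6 in mouse cells serve as the ligase, their ratio was taken within each library, which removes the library's depth. Which of them acts in bovine embryos was not tested. The log2 ratio of HERC6 to HERC5 was -4.60, -2.46 and -3.38 with BHB, -5.04, -4.04 and -4.04 in low glucose, and -1.56, -1.63 and -1.34 in control. No low glucose library reached the control range. The mean ratio was lower by a log2 difference of -2.87 in low glucose and -1.97 with BHB, both at an exact two-sided permutation p = 0.1, the smallest that 3 libraries against 3 can give (0.2 after adjustment over the 6 ratio tests). The levels of the ligases relative to one another within a library are not compared, since the counts are not scaled by gene length.

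USP18, the protease, had the lowest adjusted p of the members in both comparisons with control. It stood at 5.50, 9.24 and 5.76 CPM in low glucose with BHB, at 3.53, 5.29 and 5.31 CPM in low glucose, and at 24.7, 23.7 and 22 CPM in control. The 3 media again formed separate ranges. USP18 fell by 2.32 on the log2 scale in low glucose (SE 0.243, interval -2.85 to -1.79, adjusted p = 0.000728), which placed it at rank 12 of 16469 genes by p, and by 1.78 with BHB (SE 0.238, interval -2.30 to -1.26, adjusted p = 0.00420, rank 28). Its estimated count was not whole in 8 of 9 libraries, whereas the other 5 members had whole counts in each library. A part of the USP18 counts was therefore assigned by estimation.

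The log2 ratio of USP18 to ISG15, protease to modifier, was 1.07, -0.56 and -0.39 with BHB, 0.02, -0.87 and 0.47 in low glucose, and -0.78, -0.88 and -1.20 in control. The libraries with BHB lay above the control libraries, while low glucose overlapped with them. The mean differed from control by 0.99 with BHB (exact two-sided permutation p = 0.1, 0.2 after adjustment over the 6 ratio tests). In low glucose it differed by 0.82 (p = 0.2 in the same exact test, 0.3 after adjustment). The smallest p that 3 libraries against 3 can give is 0.1. No ratio could therefore pass the threshold, and the test cannot decide whether the ratio changed.

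**Figure D2:**
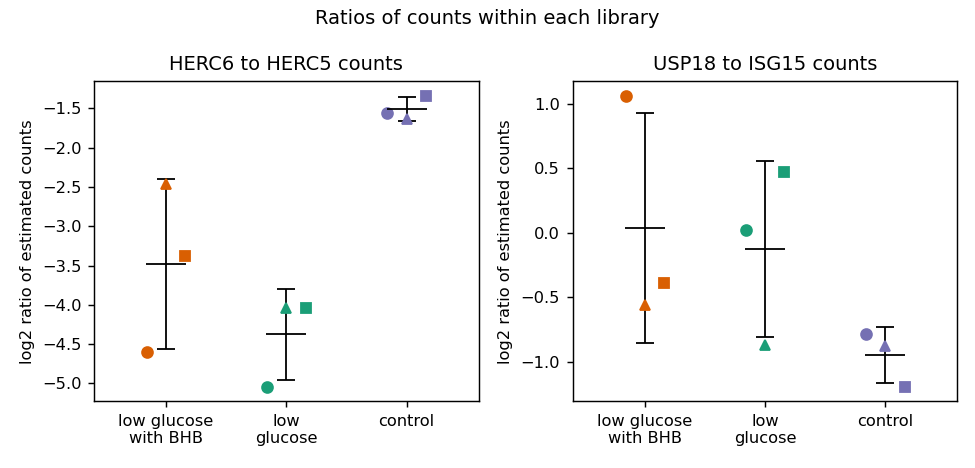
Log2 ratios of HERC6 to HERC5 and of USP18 to ISG15 in each library, by maturation medium, with the mean and 1 SD over 3 libraries. Circles, triangles and squares are replicates 1, 2 and 3. The log2 ratio of the ligases ran from -5.04 to -2.46 in the 6 low glucose libraries and from -1.63 to -1.34 in the 3 control libraries.

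Groups did not overlap for 5 of 6 members in low glucose against control (all but HERC5) and for 6 of 6 with BHB against control, always with control higher. Over all tested genes, 8.85% and 8.56% of the genes separated in that direction. In low glucose against control, ISG15, UBA7 and USP18 were called in each of 16 alternative settings, and HERC6 in 15, missing only without low glucose replicate 3 (log2 fold change -3.13, adjusted p = 0.0519). With BHB against control, USP18 was called in all 16. ISG15 lost its call without BHB replicate 3 (adjusted p = 0.139) or any of control replicates 1 to 3 (0.0857, 0.0669 and 0.112), and UBA7 without BHB replicate 1 (0.102), BHB replicate 3 (0.122), control replicate 1 (0.0967) or control replicate 3 (0.0880). HERC6 was called there by DESeq2 (adjusted p = 0.00200), by limma-voom (0.0234) and without BHB replicate 2 (log2 fold change -2.81, adjusted p = 0.0176).

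**Figure D3:**
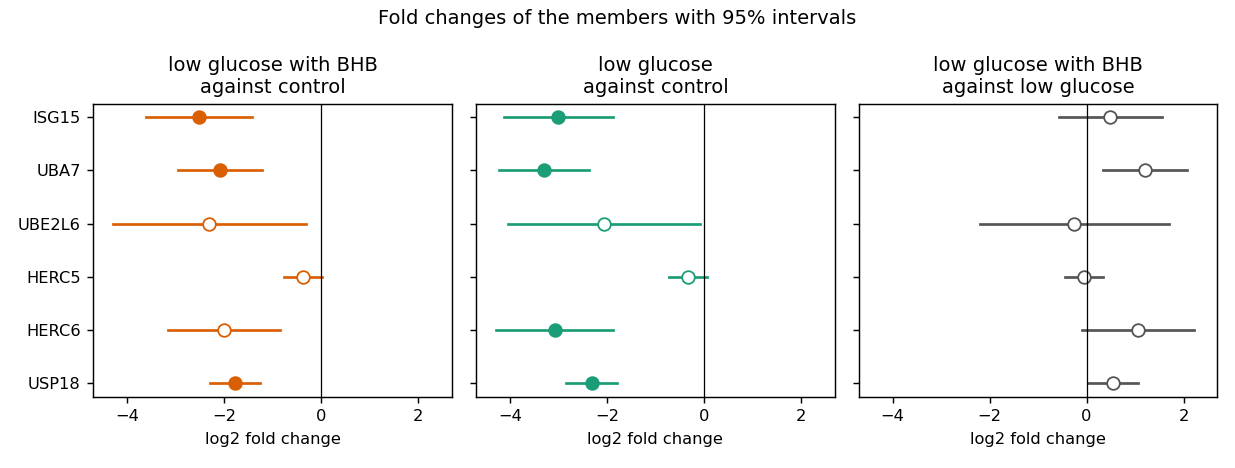
Log2 fold changes of the 6 members in the 3 comparisons, from the edgeR fit of all 9 libraries. Bars are 95% intervals, filled points passed an adjusted p of 0.05 and open points did not. Intervals for HERC5 lie close to 0 in all 3 panels, and no point is filled between the low glucose media.

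Whether BHB altered the response was tested by comparing the low glucose media with each other. No member passed, and 0% of all 16469 genes did: edgeR's test called 0 genes, with 270 at an unadjusted p under 0.05, and DESeq2 called 2. ISG15 differed by a log2 fold change of 0.49 (interval -0.57 to 1.55), HERC6 by 1.07 (-0.09 to 2.22), HERC5 by -0.06 (-0.44 to 0.33) and UBE2L6 by -0.25 (-2.20 to 1.70).

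UBA7 and USP18 did not overlap between these media and were higher with BHB in 3 of 3 libraries. Over all tested genes, 2.96% separated in that direction. UBA7 differed by 1.21 on the log2 scale (interval 0.33 to 2.08, unadjusted p = 0.0108 from edgeR) and USP18 by 0.54 (interval 0.03 to 1.05, unadjusted p = 0.0408), and neither remained after adjustment over all genes. Replicate 2 with BHB was the highest of the 6 low glucose libraries for ISG15, UBA7, HERC6, USP18 and, by a narrow margin, UBE2L6. Without it the log2 fold change between these media was 0.88 for UBA7, 0.26 for USP18, -0.16 for ISG15, 0.27 for HERC6 and -1.65 for UBE2L6, none past the threshold. Over all 9 leave-one-out fits this value ran from -0.16 to 1.12 for ISG15 (highest without low glucose replicate 2) and from -1.65 to 0.54 for UBE2L6 (highest without low glucose replicate 3). It ran from 0.81 to 1.53 for UBA7, from 0.26 to 0.67 for USP18 and from 0.27 to 1.49 for HERC6.

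Replicate 2 with BHB also had the lowest share of counts from the 13 mitochondrial genes, 2.25%, while low glucose replicate 1, which was lowest of its medium for every member but UBE2L6, had the highest, 7.93%. The share ran from 2.25 to 6.19% with BHB, from 4.41 to 7.93% in low glucose, and from 4.75 to 5.36% in control. The share did not follow the members throughout. BHB replicate 1, with the next lowest share (3.36%), had the lowest ISG15 of all libraries (2.62 CPM). Low glucose replicate 2, with a share of 5.61%, had the highest ISG15 of its medium (9.68 CPM). The part of the mitochondrial share in the members' levels was not tested.

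Of 4 further ISG15 ligases and receptors, 1 fell in each comparison with control, where 2.02% of all tested genes fell in low glucose and 1.38% with BHB. It was the same gene, TRIM25, a ligase that also acts on the RNA sensor RIG-I. TRIM25 averaged 3.24 ± 0.672 CPM with BHB, 1.68 ± 0.228 CPM in low glucose and 7.76 ± 1.68 CPM in control (SD, n = 3 each). Its log2 fold change was -2.21 in low glucose (SE 0.281, adjusted p = 0.00177) and -1.26 with BHB (SE 0.271, adjusted p = 0.0421). The call with BHB held in 7 of 16 alternatives and in 1 of the 9 that leave out a library, that without low glucose replicate 3 (adjusted p up to 0.199 in the other 8).

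None of 6 other proteases known to react with ISG15, none of 10 relatives of the enzymes (such as ubiquitin's own activating enzymes), and none of 14 genes of ubiquitin and other ubiquitin-like modifiers passed in any comparison. Their median log2 fold changes were 0.03, 0.04 and 0.04 in low glucose against control and -0.05, -0.04 and -0.03 with BHB against control. Of all tested genes, 2.02% were called lower in low glucose, 1.38% with BHB and 0% in either direction between the low glucose media. At these shares, 0 calls in lists this short do not set their genes apart from others. The protease with the smallest p was USP13 in low glucose (log2 fold change -1.27, SE 0.579, adjusted p = 0.675) and USP2 with BHB (0.50, SE 0.275, adjusted p = 0.818). Of 18 genes tested for proteins reported as ISG15 substrates, 5 fell and 13 were not called in each comparison with control. Over all tested genes 2.02% and 1.38% fell. The median log2 fold change of the 18 was -0.04 in low glucose and -0.06 with BHB, so the list as a whole was not lower. EIF2AK2, DDX58, IFIH1 and MX1 fell in each comparison with control, and these 4 also stand in the list of interferon-induced genes. With BHB, the call held in 9 of 16 alternatives for EIF2AK2, in 10 for IFIH1 and in all 16 for DDX58 and MX1. Both EIF2AK2 and IFIH1 lost it without BHB replicate 1, BHB replicate 3 or any of control replicates 1 to 3, and in low glucose EIF2AK2 lost it without low glucose replicate 2 (adjusted p = 0.0583) or 3 (0.0519). The antiviral factor IRF3, also a reported substrate, did not pass and averaged 44.1 CPM with BHB, 40.1 CPM in low glucose and 43.2 CPM in control.

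Among genes that carry an interferon signal to ISG15, the receptor chain IFNAR2 and the transcription factor IRF9 fell in each comparison with control. IFNAR2, the chain that USP18 binds, averaged 0.261 ± 0.0426 CPM with BHB, 0.417 ± 0.0571 CPM in low glucose and 2.33 ± 0.280 CPM in control (SD, n = 3 each). Its log2 fold change was -3.15 with BHB (adjusted p = 0.00559) and -2.48 in low glucose (adjusted p = 0.0104), and the call in low glucose was lost without low glucose replicate 2 (0.0668) or control replicate 2 (0.0556). IRF9 averaged 8.81 ± 1.17 CPM with BHB, 7.57 ± 1.35 CPM in low glucose and 16 ± 0.523 CPM in control. Its call in low glucose (log2 fold change -1.08, adjusted p = 0.00861) was lost without low glucose replicate 2 (0.0569), and its call with BHB (log2 fold change -0.86, adjusted p = 0.0421) held in 2 of the 9 leave-one-out fits, with an adjusted p of up to 0.165.

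IFNAR1, the other receptor chain, did not pass and averaged 17.2 CPM with BHB, 17.1 CPM in low glucose and 17.4 CPM in control, and the transcription factor STAT2 averaged 30.4, 28.4 and 29.2 CPM. STAT2, JAK1, TYK2, IRF1, IRF3, IRF7, SOCS1 and SOCS3 did not pass either. Interferon tau, the embryo's own interferon, was not called in any comparison. IFNT3 averaged 11.4 ± 7.08 CPM with BHB, 9.79 ± 1.97 CPM in low glucose and 9.55 ± 3.45 CPM in control, and IFNT2 2.66 ± 2.16, 2.46 ± 0.865 and 2.46 ± 0.819 CPM (SD, n = 3 each). The gene listed as IFN-TAU had 3 counts with BHB, 18 in low glucose and 24.8 in control, each summed over 3 libraries. Interferon tau genes are near-identical copies, so the split of reads among them is uncertain.

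Of 26 other interferon-induced genes tested, 18 fell in low glucose and 12 with BHB, with median log2 fold changes of -3.01 and -2.16. Of all tested genes, 2.02% and 1.38% fell. MX1, an antiviral GTPase, averaged 14.3 ± 6.42 CPM with BHB, 8.39 ± 2.48 CPM in low glucose and 98.2 ± 18.0 CPM in control. The RNA sensor DDX58, also called RIG-I, averaged 5.27 ± 1.44 CPM with BHB, 3.97 ± 0.819 CPM in low glucose and 19.9 ± 2.69 CPM in control. MX1 and DDX58 fell in both comparisons in each of the 16 alternatives. So did IFIT5, an RNA-binding protein, at 3.42 ± 1.61, 1.74 ± 0.530 and 20.4 ± 5.75 CPM (SD, n = 3 each). The sensor DHX58 had a log2 fold change of -2.26 in low glucose (adjusted p = 0.00174) and of -1.53 with BHB (adjusted p = 0.0181), the second called in 11 of 16 alternatives. OAS2 had 0 counts over the 3 low glucose libraries against 85 in control, at least 27.9-fold lower by a floor of 3 counts over the group, but it did not pass the test, and the median is the same with OAS2 at that bound. Leaving out a library gave between 13 and 21 called genes in low glucose. With BHB it gave 8 without BHB replicate 1, 3 without BHB replicate 3, 6 without control replicate 1 or 2, 5 without control replicate 3, and 11 to 13 otherwise.

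**Figure D4:**
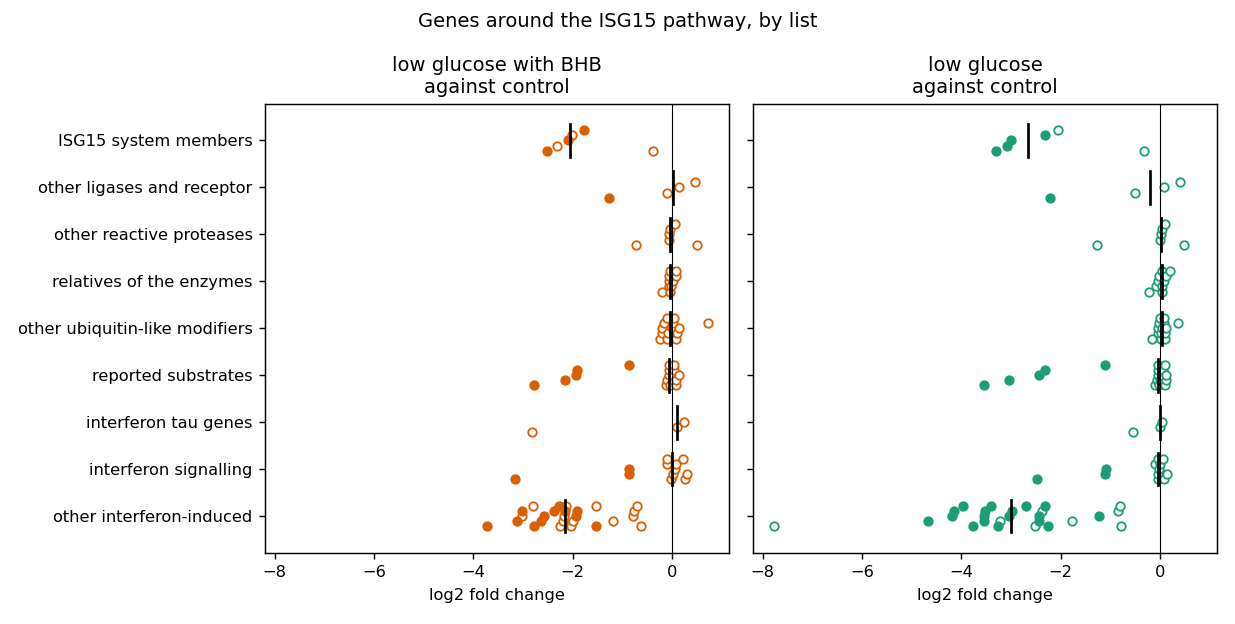
Log2 fold changes against control of the ISG15 system and of related gene lists, from the edgeR fit. Each point is a gene, filled where the adjusted p was under 0.05, and vertical bars are list medians. The leftmost point in low glucose is OAS2, which had 0 counts there, so its place depends on the prior count of the fit; filled points stand to the left of 0 in both panels.

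The genes whose pattern over the 9 libraries lay nearest to ISG15 were sought among 14649 genes by the root mean square difference of log2 CPM, each gene centred on its mean. The nearest non-members were IFI27 (0.291), RARRES2 (0.306), DCLK1 (0.317), OAS1Y (0.336), MX1 (0.379), IFI6 (0.396), EPDR1 (0.397), C1QTNF1 (0.407), CRABP2 (0.424) and PDGFC (0.425), against a median of 1.60 over all genes. Of these 10, IFI27, OAS1Y, MX1 and IFI6 were in the list of interferon-induced genes, which holds 26 tested genes, and the other 6 were not. RARRES2 encodes the signalling protein chemerin, CRABP2 carries retinoic acid and PDGFC is a growth factor. DCLK1 did not pass against control in low glucose (log2 fold change -2.97, adjusted p = 0.0750) or with BHB (-2.53, adjusted p = 0.181), and the other 5 of these fell in both comparisons. All 10 were picked by likeness to ISG15, which was far higher in control. A lower level against control therefore follows from the choice and is no separate result. HERC6 was the nearest member (0.367, rank 5). UBA7 was at rank 77 and USP18 at rank 81, while UBE2L6 was at rank 672 and HERC5 at rank 1184.

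**Figure D5:**
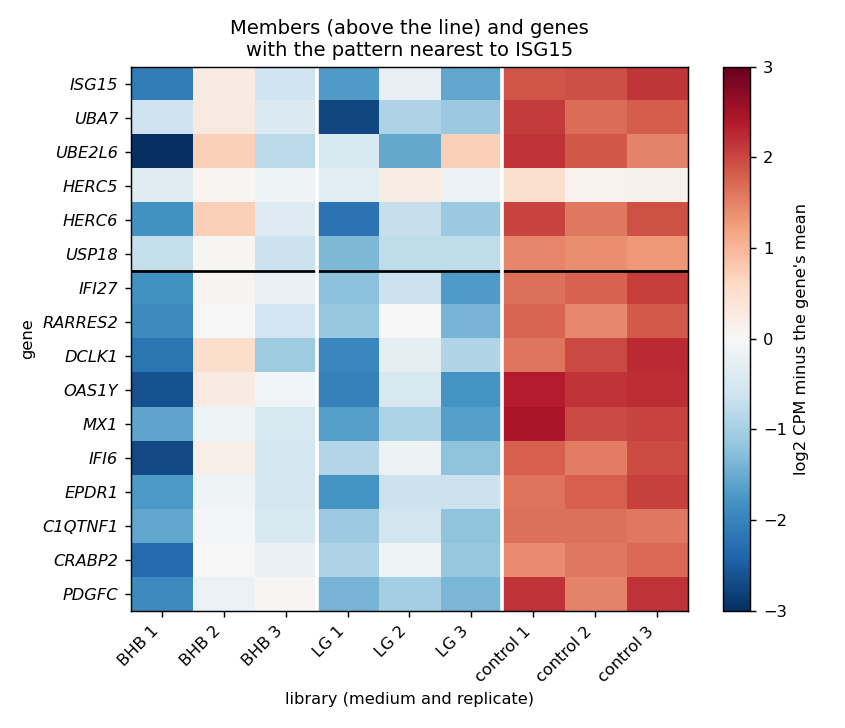
Log2 CPM minus the gene's mean over 9 libraries, for the 6 members above the black line and the 10 genes nearest to ISG15 below it. Columns are libraries, with low glucose with BHB (BHB), low glucose (LG) and control replicates 1 to 3, and colours end at 3 on either side; UBE2L6 in BHB replicate 1 lies beyond that end at -4.12. Control columns are above the mean for every gene drawn, and for each of them BHB replicate 2 is closer to the mean than BHB replicate 1.

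HERC5 and HERC6 are neighbours in the genome by the gene order of the RefSeq annotation. Among 10 other genes next to a member, 8 were tested and 0 passed in edgeR's test against control. Of all tested genes, 2.02% were called lower in low glucose and 1.38% with BHB, so 0 of 8 does not set the neighbours apart from other genes. PPM1K, on the other side of HERC6, had log2 fold changes of -0.02 in low glucose and -0.09 with BHB. HES4, beside ISG15, had -2.42 in low glucose (SE 0.954) and -3.06 with BHB (SE 0.990), neither past the threshold.

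Markers of other cells that could accompany the embryos were read beside these results. The summed level of 20 cumulus and granulosa markers ran from 160 to 237 CPM with BHB, from 127 to 269 CPM in low glucose and from 396 to 521 CPM in control. All 20 were tested, and 5 fell in low glucose and 4 with BHB, beside 2.02% and 1.38% of all tested genes. INHA, on the list, had 0 counts over the 3 low glucose libraries, against 44 with BHB and 107 in control. The median log2 fold change of the 20 was -1.10 in low glucose and -0.90 with BHB. LUM, a matrix proteoglycan on that list, averaged 12.3 ± 0.154 CPM with BHB, 14.3 ± 9.21 CPM in low glucose and 139 ± 59.2 CPM in control (SD, n = 3 each). The steroid enzyme CYP19A1 (22.4, 19.5 and 21.2 CPM) and the receptor FSHR (3.6, 4.85 and 4.18 CPM), on the same list, did not pass. They were picked after their values were seen and do not stand for the list.

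The summed level of 12 fibroblast and stroma markers ran from 233 to 433 CPM with BHB, from 206 to 391 CPM in low glucose and from 473 to 1099 CPM in control. Of the 12, 5 fell in low glucose and 4 with BHB, beside 2.02% and 1.38% of all tested genes. FBN1, a fibrillin of the matrix, averaged 7.38 ± 0.903 CPM with BHB, 8.16 ± 0.825 CPM in low glucose and 37.9 ± 19.6 CPM in control (SD, n = 3 each). The cumulus and stroma sums, like that of the ISG15 system, were higher in control than in either low glucose medium. Within a medium they did not always go together. BHB replicate 1 and low glucose replicate 1 had the highest stroma sums of their media (433 and 391 CPM) and the lowest sums of the members (34.8 and 32.3 CPM). With BHB the cumulus sum had the same order as the members, and control replicate 1 was highest in each of these sums. Their part in the lower level of the system was not tested. Leukocyte markers summed to 15 to 21.1 CPM with BHB, 13.9 to 25 CPM in low glucose and 17.6 to 20.5 CPM in control, 0 of 13 tested passed, and the defining marker PTPRC had 24 counts in all 9 libraries together. No trophectoderm, epiblast, sperm or oocyte marker passed, and of the 8 hypoblast markers 1 fell in each comparison with control, GATA4.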

How the data were processed

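Poly(A) RNA of 9 pools of day 8 bovine blastocysts was sequenced, 3 for each maturation medium. The authors deposited estimated counts per gene, of which 19.2% were not whole (tolerance 1e-06); the tools named are fastp, kallisto and DESeq2 with the build bosTau9, per the submitters' processing notes. The sources used here give no tool versions. Counts were rounded. edgeR 4.0.16 (R 4.3.3) fitted 3 group means to all 9 libraries with TMM factors, after filterByExpr (minimum count 10, minimum total 15), and each comparison was tested two-sided by quasi-likelihood with Benjamini-Hochberg adjustment over all 16469 genes. Each standard error is the fold change divided by the root of its F statistic, and 95% intervals follow from it. Alternatives were DESeq2 1.42.0, limma-voom (limma 3.58.1), RLE scaling, other filters, only the 6 libraries compared, a replicate block and each library left out. The edgeR fit was tested on simulated data. Figures were drawn with matplotlib 3.10.9.

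The members and the gene lists were chosen with earlier results of these data known, and the ratios were added after the data were seen, with a pseudocount of 0.5. All members were described. Of each list, up to 4 genes past the threshold in a comparison with control were named, smallest p first, or up to 2 where none passed; signalling and interferon tau genes were to be named in full, with the 10 genes nearest to ISG15, and 1 gene of these lists is not reported here. OAS2, EIF2AK2, the neighbouring genes and the lineage and cell markers that did not pass were named outside this rule, after their values were seen. Missing symbols were filled by gene ID from RefSeq, assembly ARS-UCD2.0, used for names and gene order only. Replicates of a medium correlated at 0.951 to 0.976 in log2 CPM, and no pair agreed within sampling noise (smallest chi-square per degree of freedom 38.1). Deviations of same-numbered libraries correlated at 0.115, 0.243 and 0.102 between the low glucose media, which meets the mark of 0.1 for pairing there by the data alone; the labels name no shared batch. They correlated at 0.131, 0.0491 and 0.0417 for low glucose and control, and at 0.144, 0.0626 and 0.0458 for BHB and control, which does not.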

Additional observations from a re-analysis of the deposited data

How the results depend on the processing

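Each fold change of a called member kept its sign in the 16 alternatives. DESeq2 moved the number of genes past the threshold to 583 in low glucose against control, to 441 with BHB against control and to 2 between the low glucose media, against 334, 228 and 0 by edgeR; the cause was not tested. With the replicate block the numbers were 405, 278 and 0 genes, and 4, 4 and 0 members, HERC6 with BHB being the added member (log2 fold change -2.37, adjusted p = 0.0245); between the low glucose media, where the numbers pair, it changed no call. Leaving out 1 library gave 196 to 391 genes and 3 to 4 members in low glucose, 91 to 257 genes and 1 to 4 members with BHB, and 0 of either between the media. UBE2L6 and HERC5 were called in 0 of 16 alternatives in both comparisons with control; UBE2L6 ranged from -2.85 to -1.64 in low glucose and from -3.71 to -1.74 with BHB, and HERC5 from -0.49 to -0.20 and from -0.49 to -0.25 on the log2 scale. For UBE2L6 the exact counting intervals of BHB replicates 1 and 2 (0.0253 to 5.57 and 78.7 to 118 counts) did not overlap, so these libraries of 1 medium differed by more than counting error; why UBE2L6 was not called was not tested.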
